A study of Homo sapiens with 8 samples.

Results

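The genes described here belong to 6 families of amino acid carriers, SLC1A, SLC3A, SLC7A, SLC36A, SLC38A and SLC43A. They were taken as the protein-coding rows of the read count table whose symbols carry one of these family names, and 33 of the 40 such rows had at least 10 reads in 1 or more libraries. The table holds 31710 genes. The 33 members are 6 of SLC1A, 2 of SLC3A, 10 of SLC7A, 2 of SLC36A, 10 of SLC38A and 3 of SLC43A. The 7 rows under the read minimum were SLC1A6, SLC7A3, SLC7A13, SLC7A14, SLC36A2, SLC36A3 and SLC38A8, and the highest count among them was 9 reads, in SLC7A14. All 33 members passed the filter on low counts that left 16972 genes for testing, so every member enters each count below.

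Poly(A) RNA was sequenced from Huh7 and Hep3B, 2 established human liver cancer cell lines. Each line gave 1 library without drug (control), 1 with the antidepressant sertraline, 1 after 10 days of XL413, and 1 after 10 days of XL413 followed by sertraline for 24 hours. XL413 inhibits the replication kinase CDC7, and the labels give the induction of senescence as the aim of the pretreatment. All cells were grown in DMEM with serum and added glutamine. Doses are not stated in the sources at hand, and the stated 24 hours refers to pretreated cells, so the time of sertraline without XL413 was not taken from the labels. With 1 library per line and treatment, the 2 lines served as the replicates, and whether separate cultures would give the same values was not tested. Libraries held 20275392 to 30842770 reads, of which the 33 members took 0.253% to 0.366%.

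Amino acids cross membranes through carriers that differ in substrate, in the ion that drives them and in the membrane they sit in. Most SLC7A proteins are light chains that reach the plasma membrane only when joined by a disulfide bond to an SLC3A heavy chain, and they exchange an amino acid outside the cell for another inside. Several SLC1A and SLC38A carriers use the sodium gradient to load the cell with glutamate, glutamine, alanine and other small amino acids. The exchangers then trade some of these for essential ones. Several of these genes are textbook targets of ATF4, the transcription factor made when amino acids run short or proteins misfold, which binds with C/EBP partners to a sequence called the CARE. In liver, these carriers serve glutamine exchange, urea synthesis and the supply of cystine for glutathione.

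The promoter windows that hold a CARE are shown first, because several of the genes that have one passed the test for sertraline below. Windows run from 250 bases before to 50 bases after an annotated start and come from RefSeq (GRCh38.p14). They were found for 26 of the 33 members, 47 windows in all, and a gene may have several. Of these 26 genes, 6 passed the test for sertraline, and 5 of those 6 have a CARE window. Among all 26 genes, 6 have one. The share of genes with a CARE in any window was not computed for all genes tested. A gene with more windows has more chances of a match, and a link between the CARE and the sertraline test was not tested. The CARE was searched as TGATGNAA and the antioxidant response element, the NRF2 site, as TGACNNNGC, each on both strands. The CARE letters were in 6 of the 47 windows (12.8%), against 3.62% of 35116 windows in the whole table and 2.2% of 16098 windows of tested genes. The antioxidant letters were in 7 of the 47 windows (14.9%), against 13.3% and 14.3%. In the sequences below, written 5′ to 3′ on the strand of the gene, capitals mark the matches, a CARE on the opposite strand appears as its reverse complement, and the start follows base 250.
SLC3A2 (chr11:62881449-62881748, plus strand): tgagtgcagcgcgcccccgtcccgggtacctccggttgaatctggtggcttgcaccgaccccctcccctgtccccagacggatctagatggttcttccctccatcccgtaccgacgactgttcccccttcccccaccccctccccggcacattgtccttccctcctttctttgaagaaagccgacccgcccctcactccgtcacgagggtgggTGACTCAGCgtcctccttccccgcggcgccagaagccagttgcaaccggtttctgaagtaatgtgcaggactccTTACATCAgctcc
SLC7A1 (chr13:29595639-29595938, minus strand): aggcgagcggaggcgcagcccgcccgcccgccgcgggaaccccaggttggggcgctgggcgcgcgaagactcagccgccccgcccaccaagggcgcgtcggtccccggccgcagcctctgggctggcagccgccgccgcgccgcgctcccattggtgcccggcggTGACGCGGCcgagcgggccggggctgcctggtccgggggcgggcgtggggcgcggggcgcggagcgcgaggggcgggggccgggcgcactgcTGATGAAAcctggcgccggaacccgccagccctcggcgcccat
SLC1A4 (chr2:64989149-64989448, plus strand): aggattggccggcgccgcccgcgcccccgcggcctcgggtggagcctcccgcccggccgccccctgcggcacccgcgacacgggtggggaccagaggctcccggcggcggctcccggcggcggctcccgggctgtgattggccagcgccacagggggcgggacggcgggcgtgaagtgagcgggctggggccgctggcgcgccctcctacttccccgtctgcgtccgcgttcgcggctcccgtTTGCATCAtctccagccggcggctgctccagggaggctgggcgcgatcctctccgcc
SLC1A5 (chr19:46784765-46785064, minus strand): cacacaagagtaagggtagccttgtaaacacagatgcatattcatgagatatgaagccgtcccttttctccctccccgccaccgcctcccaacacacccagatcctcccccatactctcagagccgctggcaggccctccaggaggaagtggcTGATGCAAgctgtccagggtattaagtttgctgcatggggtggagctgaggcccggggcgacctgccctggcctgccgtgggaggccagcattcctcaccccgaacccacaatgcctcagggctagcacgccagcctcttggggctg
SLC1A3 (chr5:36596338-36596637, plus strand): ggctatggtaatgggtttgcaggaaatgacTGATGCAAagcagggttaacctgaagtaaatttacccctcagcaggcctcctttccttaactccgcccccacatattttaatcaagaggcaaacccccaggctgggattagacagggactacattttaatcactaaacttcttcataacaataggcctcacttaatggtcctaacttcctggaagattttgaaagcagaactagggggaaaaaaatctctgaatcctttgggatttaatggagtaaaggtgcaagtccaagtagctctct
SLC38A1 (chr12:46266467-46266766, minus strand): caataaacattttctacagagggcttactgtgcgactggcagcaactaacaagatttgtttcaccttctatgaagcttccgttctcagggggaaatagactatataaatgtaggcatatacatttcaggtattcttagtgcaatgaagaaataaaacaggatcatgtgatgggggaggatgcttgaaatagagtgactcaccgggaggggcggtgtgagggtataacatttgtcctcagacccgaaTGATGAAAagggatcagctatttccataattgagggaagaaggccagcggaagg
The SLC3A2 and SLC7A1 windows hold both motifs and no base is shared between the 2 matches. The first 4 genes were higher with sertraline and the fifth, SLC1A3, was lower, so windows with these letters occur among members that moved in either direction. The sixth gene, SLC38A1, did not pass the test, and SLC7A6, which did, has a window without a CARE. SLC7A11 and SLC38A3, which rose, are named only, since the table has no window for them. Each of the 6 genes except SLC7A1 also has windows without a CARE, which are not printed. The windows shown for SLC3A2, SLC1A4, SLC1A5 and SLC38A1 lie inside their genes. The windows at the gene starts of SLC3A2 (chr11:62855859-62856158), SLC1A4 (chr2:64988229-64988528) and SLC1A5 (chr19:46788545-46788844) have no CARE. The SLC1A3 window shown lies upstream of the gene start at 36606355. A match describes letters in a window and does not show binding.

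Levels were compared between genes as TMM-scaled CPM, which are read counts relative to library size, per kilobase of merged exon length, since longer transcripts collect more reads. Over the 8 libraries the heavy chain SLC3A2 was highest, at 72.1 ± 32.0 CPM per kb (SD, n = 8), followed by the sodium-coupled neutral carrier SLC38A2 at 71.8 ± 11.6. Next came the facilitative leucine carrier SLC43A1 at 66.5 ± 32.1, the leucine exchanger SLC7A5 at 60.01 ± 16.2 and the glutamine exchanger SLC1A5 at 49.4 ± 17.7. In this order no mean differed from the next by more than the larger of their SDs. The cationic carrier SLC7A2 (39.6 ± 12.5), the system A carrier SLC38A1 (35.7 ± 6.95) and the system N glutamine carrier SLC38A3 (23.6 ± 15.1) followed, again with steps under the larger SD. At the other end stood the glutamate carriers SLC1A2 (0.0166 ± 0.0168) and SLC1A7 (0.108 ± 0.0487) and the heavy chain SLC3A1 (0.125 ± 0.0595), which pairs with SLC7A9 in the cystine carrier of kidney and gut. Of the CPM summed over both heavy chains and 8 libraries, 99.8% were those of SLC3A2.

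**Figure D1:**
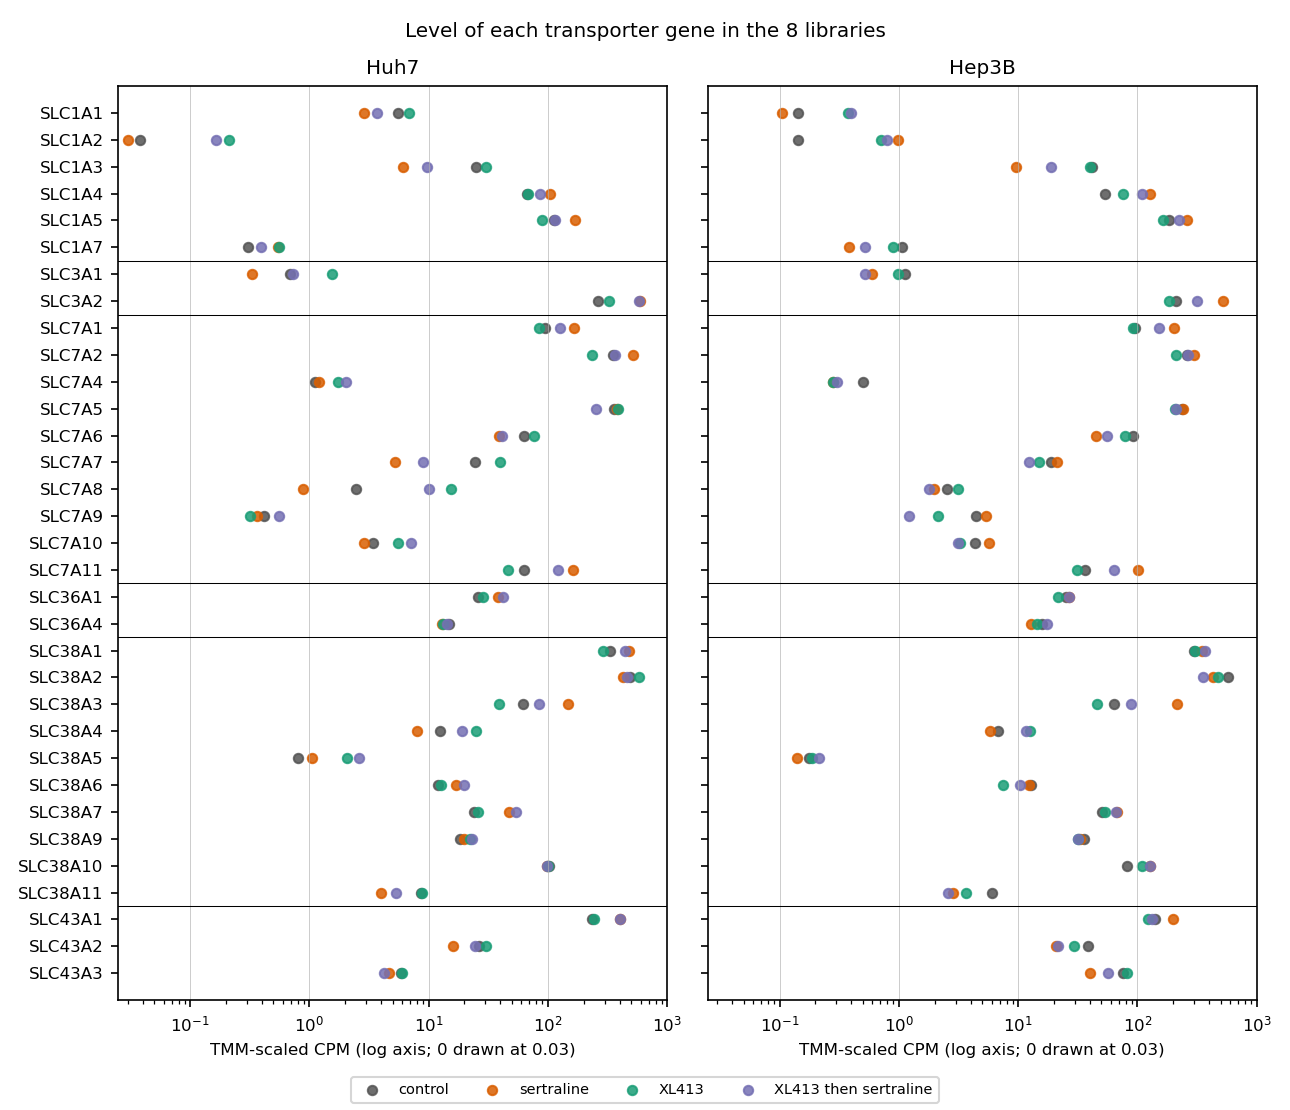
TMM-scaled CPM of each of the 33 members (log axis) in the 4 Huh7 libraries (left) and the 4 Hep3B libraries (right), coloured by treatment, with lines between the families. SLC3A2 and SLC7A11 sit to the right with sertraline and with both drugs in each line, SLC1A3 sits to the left, and SLC43A3, SLC7A9 and SLC1A1 change position between the lines.

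Sertraline raised the RNA of the cystine and glutamate exchanger and its heavy chain, of SLC38A3, SLC7A1, SLC1A4 and SLC1A5, and lowered that of SLC1A3 and SLC7A6. These are 8 of the 33 members (24.2%), 6 higher and 2 lower, at an adjusted p under 0.05 by edgeR's quasi-likelihood test with Benjamini-Hochberg adjustment over 16972 genes, a threshold referred to below as called. Among all genes tested, 4.9% were called, 2.96% higher and 1.94% lower. Without adjustment, 17 of the 33 had a p under 0.05, against 22.2% of all genes tested. The median log2 change of the members was 0.16, against 0.01 for all genes. Changes had the same sign in both lines for 23 of the 33, a share not computed for all genes. By family, 3 of 6 SLC1A, 1 of 2 SLC3A, 3 of 10 SLC7A, 1 of 10 SLC38A, 0 of 2 SLC36A and 0 of 3 SLC43A members were called. The additive model called 17 members and 3399 of the 16972 genes, and a fit without the cell line called 0 members and 0 genes. Among fits that left out a library, the one without the Hep3B control called the fewest members and also the fewest genes.

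SLC3A2 encodes the heavy chain 4F2hc, or CD98, on which 6 of the light chains measured here depend (gene at chr11:62856102-62888875). In Huh7 there were 261 CPM in the control, 589 with sertraline, 325 with XL413 and 579 with both drugs. Hep3B gave 211, 525, 183 and 316 in the same order. Both libraries with sertraline alone were above both controls, and in each line the library with both drugs was above the one with XL413. The log2 change with sertraline was 1.25 ± 0.19 (SE, edgeR adjusted p = 0.0125). The call was lost without the Huh7 control (log2 change 1.11, adjusted p = 0.0803), without the Hep3B control (1.42, 0.0657) and without the Hep3B sertraline library (0.98, 0.0609).

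SLC7A11, or xCT, takes up cystine in exchange for glutamate and so feeds glutathione synthesis (chr4:138164097-138242349). Huh7 libraries held 63.6 CPM in the control, 162 with sertraline, 46.2 with XL413 and 121 with both drugs. Those of Hep3B held 36.7, 100.3, 31.5 and 63.7. Hep3B was the lower line under every treatment, and each line was higher with sertraline, 2.53-fold in Huh7 and 2.71-fold in Hep3B. The change was 1.40 ± 0.13 (SE, edgeR adjusted p = 0.00407) on the log2 scale and was called in all 8 fits that left out a library. An antisense gene, SLC7A11-AS1, shares 8.97% of its exon length, and since the counting's strand setting is not given in the sources at hand, their reads may not be told apart.

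Of the other light chains of SLC3A2 none was called higher, and SLC7A6 was called lower. SLC7A5, or LAT1, the main importer of leucine and other large neutral amino acids in growing cells, had 361 CPM in the control, 379 with sertraline, 385 with XL413 and 255 with both drugs in Huh7. In Hep3B it had 237, 242, 207 and 211. Control and sertraline libraries were close within each line, and its log2 change was 0.05 ± 0.15 (SE, edgeR adjusted p = 0.881). SLC7A5 has near-identical pseudogene copies in the genome, so how its reads were shared out is uncertain. SLC7A6, or y+LAT2, which exports arginine in exchange for glutamine and sodium, went the other way. It had 63.0 CPM in the control, 39.1 with sertraline, 77.0 with XL413 and 41.4 with both drugs in Huh7. Hep3B values were 92.2, 44.9, 78.4 and 56.1. Both sertraline libraries lay below both controls, and the log2 change was -0.87 ± 0.15 (SE, edgeR adjusted p = 0.0182). The call was lost without the Hep3B control (-0.70, adjusted p = 0.134) or the Hep3B sertraline library (-0.80, 0.112). SLC7A6 shares 44.4% of its exon length with SLC7A6OS on the opposite strand, so its reads may include those of that gene. SLC7A7, SLC7A8 and SLC7A10 differed between the lines and are given further below. SLC7A9 and its heavy chain SLC3A1 had at most 5.43 and 1.54 CPM in any library and were not called.

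**Figure D2:**
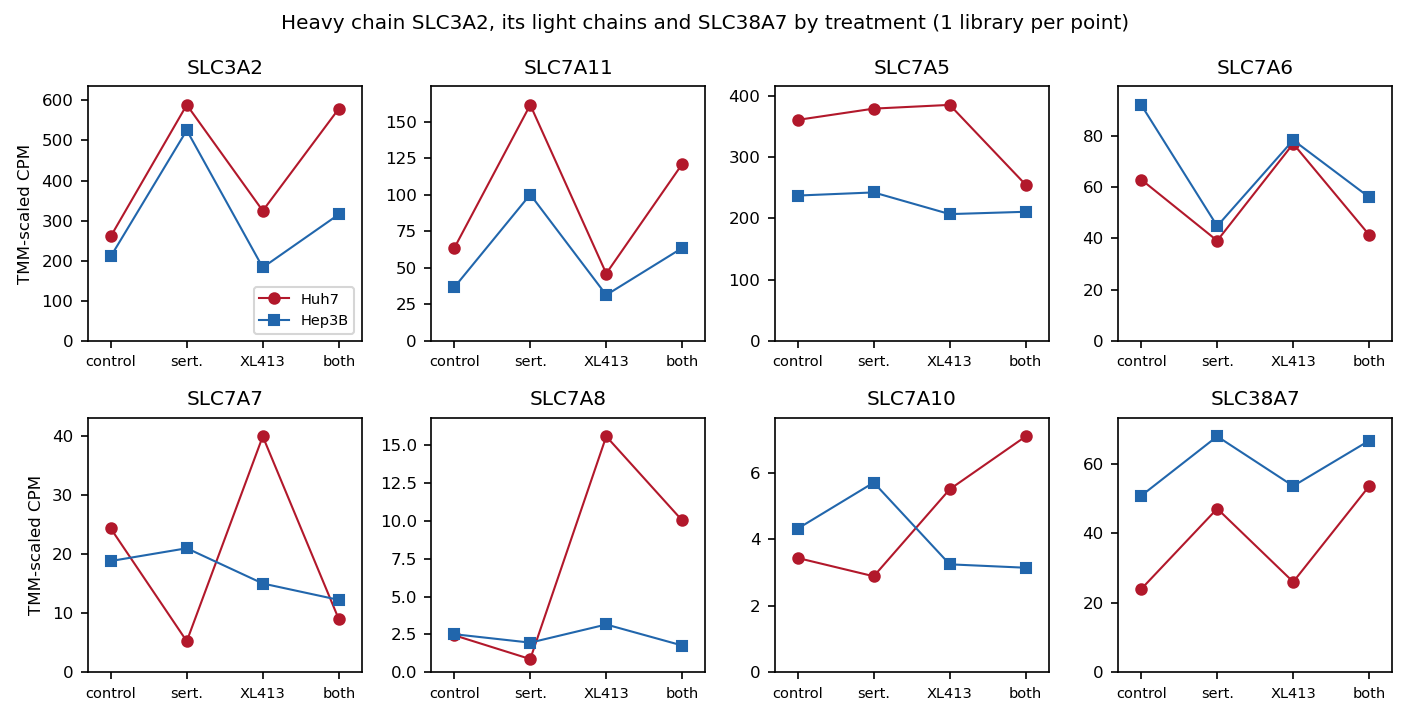
TMM-scaled CPM (linear axes from 0, a scale for each gene) of SLC3A2, its light chains and the lysosomal carrier SLC38A7 under control, sertraline (sert.), XL413 and both drugs, with 1 library per point; lines only join the libraries of a cell line. SLC3A2 and SLC7A11 are high with sertraline in both lines, SLC7A5 is nearly level apart from the Huh7 library with both drugs, and SLC7A7, SLC7A8 and SLC7A10 take different courses in the 2 lines.

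Cationic amino acids enter cells through SLC7A1 and SLC7A2 without a heavy chain. SLC7A1, or CAT1, the widespread arginine and lysine carrier (chr13:29509410-29595688), had 94.3 CPM in the control, 165 with sertraline, 83.5 with XL413 and 126 with both drugs in Huh7. The Hep3B values were 95.1, 204, 91.5 and 150.5. The lines were alike in the controls and both sertraline libraries were above both of them, with a log2 change of 0.95 ± 0.12 (SE, edgeR adjusted p = 0.00769). Without the Hep3B control the call was lost (0.85, adjusted p = 0.0736). SLC7A2, or CAT2, the form typical of liver, had 353 CPM in the control, 517 with sertraline, 236 with XL413 and 367 with both drugs in Huh7 and was not called (0.39 ± 0.15, edgeR adjusted p = 0.188). In Hep3B its values were 259, 299, 210.5 and 263. SLC7A4, a relative of these carriers, stayed at or under 2.05 CPM in all 8 libraries and was not called.

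The SLC1A family split. Its members SLC1A4 and SLC1A5, or ASCT1 and ASCT2, exchange alanine, serine, cysteine and, in the case of ASCT2, glutamine. Its other members carry glutamate and aspartate. SLC1A4 (chr2:64988477-65023865) had 67.0 CPM in the control, 104 with sertraline, 68.4 with XL413 and 86.1 with both drugs in Huh7. The Hep3B libraries had 53.3, 129, 76.3 and 109.5. The sertraline libraries stood above the controls in both lines, 1.55-fold in Huh7 and 2.4-fold in Hep3B, and the log2 change was 0.94 ± 0.17 (SE, edgeR adjusted p = 0.0223). It was not called without the Hep3B control (0.65, adjusted p = 0.123) or the Hep3B sertraline library (0.82, 0.113).

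For SLC1A5 (chr19:46774883-46788594), Huh7 gave 112 CPM in the control, 169 with sertraline, 88.8 with XL413 and 114 with both drugs. Hep3B gave 183, 262, 165 and 224. Sertraline libraries were above the control of their own line, but the Huh7 sertraline library was below the Hep3B control. The log2 change was 0.56 ± 0.13 (SE, edgeR adjusted p = 0.0437). This call was lost in each of the 8 fits that left out 1 library, with changes of 0.44 to 0.67 and adjusted p-values of 0.0611 to 0.256. An antisense gene, AC008622.2, shares 23.4% of its exon length.

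SLC1A3, or EAAT1 (GLAST), a sodium-driven importer of glutamate and aspartate, fell most among the members (chr5:36606355-36688334). In Huh7 there were 24.9 CPM in the control, 6.08 with sertraline, 30.1 with XL413 and 9.68 with both drugs. In Hep3B it was 41.6, 9.63, 40.0 and 19.0. All 4 libraries with sertraline, with or without XL413, lay below all 4 without it. The fall was 3.86-fold in Huh7 and 4.16-fold in Hep3B without XL413, and the log2 change of -2.07 ± 0.17 (SE, edgeR adjusted p = 0.00298) was called in all 8 fits that left out a library. The remaining glutamate carriers were not called. SLC1A1, or EAAT3, was -0.83 ± 0.43 (SE, edgeR adjusted p = 0.306), and its 2 Huh7 sertraline libraries, at 2.89 and 3.70 CPM, lay below the 5.55 and 6.91 CPM without sertraline. SLC1A7 and SLC1A2 had at most 1.06 and 0.981 CPM.

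Within SLC38A, the sodium-coupled neutral carriers, SLC38A3 was the 1 member called. SLC38A3, or SNAT3, is the system N carrier through which liver cells take up and release glutamine (chr3:50205246-50221486). In Huh7 it had 62.4 CPM in the control, 149 with sertraline, 39.2 with XL413 and 84.1 with both drugs. In Hep3B the values were 63.2, 216, 46.0 and 89.1. The libraries with sertraline alone were the highest of each line and those with XL413 alone the lowest. The log2 change was 1.52 ± 0.15 (SE, edgeR adjusted p = 0.00437), called in all 8 fits that left out a library. SLC38A2, or SNAT2, the system A carrier known to be induced when amino acids are scarce, was not among those called. It had 486 CPM in the control, 423 with sertraline, 585 with XL413 and 463 with both drugs in Huh7. In Hep3B it had 578, 430.0, 472 and 358. In each line the sertraline library was below the control, and the log2 change of -0.32 ± 0.17 (SE, edgeR adjusted p = 0.301) was not called. SLC38A1, or SNAT1, was above its control in both lines, at 334 CPM in the control, 476 with sertraline, 290.1 with XL413 and 444 with both drugs in Huh7. Its Hep3B values were 296, 346, 302 and 371 CPM, and it was not called (0.37 ± 0.14, edgeR adjusted p = 0.171). SLC38A7 (0.68 ± 0.20, edgeR adjusted p = 0.0891) and SLC38A11 missed the threshold, the latter at -1.12 ± 0.26 (SE, edgeR adjusted p = 0.0526). SLC38A10, SLC38A6, SLC38A5 and SLC38A4 had log2 changes between -0.44 and 0.28, none called.

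Lysosomal and facilitative carriers complete the families, and SLC38A9 and the members of SLC36A and SLC43A were not called for sertraline. SLC38A9, which senses arginine at the lysosome and signals to mTORC1, had 18.5 CPM in the control, 19.9 with sertraline, 22.1 with XL413 and 23.2 with both drugs in Huh7. Hep3B had 35.9, 33.0, 31.7 and 32.1, and its log2 change was -0.02 ± 0.16 (SE, edgeR adjusted p = 0.968). SLC36A1, or PAT1, which moves small amino acids out of the lysosome with protons, had 26.1 CPM in the control, 37.9 with sertraline, 28.4 with XL413 and 41.7 with both drugs in Huh7. In Hep3B it had 25.4, 26.9, 21.4 and 26.6 CPM. Both Huh7 libraries with sertraline were above both without it, while the Hep3B libraries lay between 21.4 and 26.9 CPM, and the change was not called (0.30 ± 0.16, edgeR adjusted p = 0.324). SLC36A4 was not called either (-0.25 ± 0.15, edgeR adjusted p = 0.383). SLC43A1, or LAT3, a facilitative carrier of leucine and phenylalanine abundant in liver (chr11:57484534-57515786), had 233 CPM in the control, 406 with sertraline, 245 with XL413 and 401 with both drugs in Huh7. Hep3B had 140.2, 199, 123 and 133. The sertraline library was at 1.74-fold its control in Huh7, and the log2 change over both lines was 0.64 ± 0.19 (SE, edgeR adjusted p = 0.093). SLC43A2, or LAT4, was lower with sertraline in each line (-0.81 ± 0.20, edgeR adjusted p = 0.0551), as was SLC43A3, a carrier of purine bases (-0.67 ± 0.18, edgeR adjusted p = 0.0762).

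**Figure D3:**
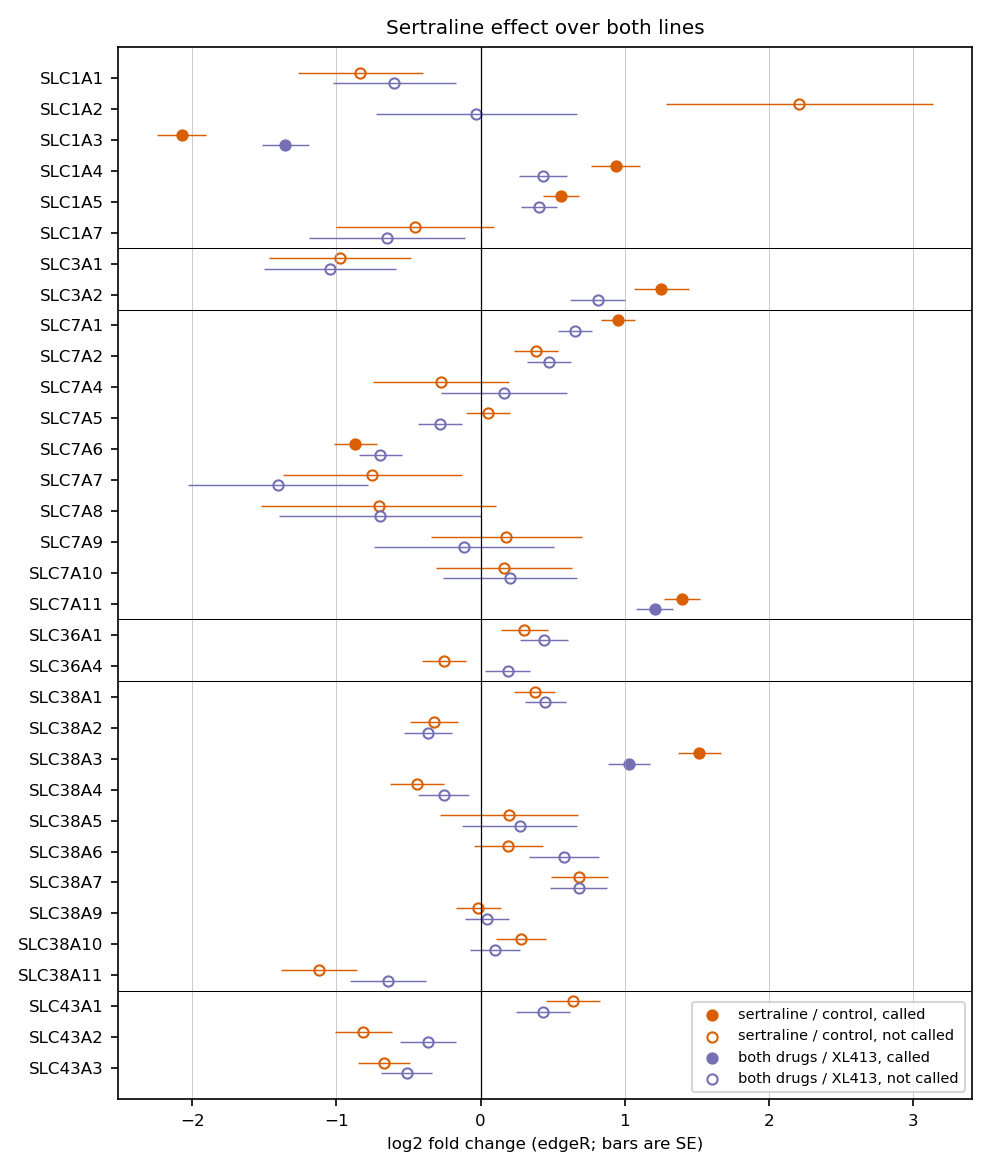
Log2 fold change of each member with sertraline, against control (orange) and after XL413 (purple), with bars of 1 SE; filled points were called. The filled orange points are 6 above 0 and 2 below, and the 3 filled purple points, SLC7A11, SLC38A3 and SLC1A3, have the same sign as the orange ones.

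Sertraline given after XL413 raised SLC7A11 and SLC38A3 and lowered SLC1A3. These 3 of 33 members were called, against 0.937% of all genes tested (0.666% higher and 0.271% lower), and all 3 were among the 8 above. Without adjustment, 16 members (48.5%) and 16% of genes had a p under 0.05. The libraries of this comparison are not shared with the first one, although both fits share 1 estimate of the spread. The log2 changes were 1.21 ± 0.13 (SE, edgeR adjusted p = 0.0124) for SLC7A11, 1.03 ± 0.15 (SE, edgeR adjusted p = 0.0244) for SLC38A3 and -1.35 ± 0.16 (SE, edgeR adjusted p = 0.0157) for SLC1A3. Of the other 5, SLC7A1 (0.66 ± 0.12, edgeR adjusted p = 0.0512), SLC3A2 (0.81 ± 0.19, edgeR adjusted p = 0.095) and SLC7A6 (-0.69 ± 0.15, edgeR adjusted p = 0.0744) missed the threshold. SLC1A5 was 0.41 ± 0.13 (SE, edgeR adjusted p = 0.171) and SLC1A4 was 0.43 ± 0.17 (SE, edgeR adjusted p = 0.261). Over the 33 members 27 had the same sign in both sertraline comparisons, a share near the 77.1% of all genes tested. All 14 with an unadjusted p under 0.05 in both had the same sign. The share of such genes among all tested was not computed. No call of this comparison held without the Huh7 XL413 library, without the Huh7 library with both drugs or without the Hep3B library with both drugs. Over all genes, these fits also called far fewer than the main fit. In these fits the adjusted p was 0.0727 to 0.188 for SLC7A11, 0.078 to 0.248 for SLC1A3 and 0.0898 to 0.311 for SLC38A3, and SLC38A3 was also not called without the Hep3B XL413 library (0.0772).

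No member was called for XL413 alone. Among all genes, 0 of 16972 were called with edgeR (0%), while 1828 genes (10.8%) and 5 members (15.2%) passed 0.05 before adjustment. With DESeq2 the calls were 203 genes and 1 member, SLC38A4, and with limma voom there were 0. SLC38A4, or SNAT4, a system A carrier typical of liver, had the smallest p. In Huh7 it had 12.6 CPM in the control, 7.94 with sertraline, 24.8 with XL413 and 18.9 with both drugs. In Hep3B it was 6.81, 5.85, 12.5 and 11.6. Both libraries with XL413 alone were above the control of their line, 1.93-fold in Huh7 and 1.78-fold in Hep3B, with a log2 change of 0.93 ± 0.18 (SE, edgeR adjusted p = 0.188) and a DESeq2 adjusted p of 0.00612. The others were SLC38A3 (-0.57 ± 0.15, edgeR adjusted p = 0.255), SLC7A2 (-0.44 ± 0.15, edgeR adjusted p = 0.39), SLC7A11 (-0.34 ± 0.13, edgeR adjusted p = 0.407) and SLC1A2 (2.41 ± 0.95, edgeR adjusted p = 0.429). SLC1A2 rested on 1 and 6 reads in Huh7 and 4 and 15 reads in Hep3B, so its fitted change depends on the smoothing of low counts. The additive model, which reads the XL413 effect from all 8 libraries, called 5 members and 1094 of 16972 genes. Under XL413, 15 of the 33 members had changes of the same sign in both lines, a share not computed for all genes.

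Whether XL413 altered the response to sertraline was tested as the interaction of the drugs, and no member and no gene (0%) was called by edgeR, DESeq2 or limma voom. Before adjustment, 140 genes (0.825%) and 2 members (6.06%) had an edgeR p under 0.05. These were SLC1A3, with an interaction of 0.72 ± 0.23 (SE, edgeR adjusted p = 1), and SLC38A3, with -0.49 ± 0.20 (SE, edgeR adjusted p = 1).

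The lines differed in most members, as in most genes. Over the 4 treatments 20 of 33 members (60.6%) were called between Hep3B and Huh7, 8 higher and 12 lower in Hep3B, against 62.7% of all genes tested (31.4% in each direction). Unadjusted, the same 20 and 66.6% of all genes had a p under 0.05. The 4 libraries of a line did not overlap those of the other for 8 members (24.2%), against 49.3% of all genes tested. A fit without the treatment term called 10 members and 8967 of 16972 genes, against 10646 genes in the main fit.

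The 5 widest differences were those of SLC1A1, SLC43A3, SLC38A5, SLC7A9 and SLC1A2, in that order. In Huh7 SLC43A3 had 5.89 CPM in the control, 4.65 with sertraline, 6.04 with XL413 and 4.26 with both drugs. Hep3B had 76.5, 40.4, 81.7 and 56.8 CPM in the same order. Its difference was 3.58 ± 0.14 (SE, edgeR adjusted p = 3.36e-07) on the log2 scale, and a second gene on the same strand, AP000781.2, shares 29.9% of its exon length. SLC7A9, or b0,+AT, the light chain of SLC3A1, was 2.79 ± 0.42 (SE, edgeR adjusted p = 0.000535), with 40 to 155 reads per Hep3B library and 9 to 17 per Huh7 library. SLC1A1 ran the other way, at 5.55 CPM in the control, 2.89 with sertraline, 6.91 with XL413 and 3.70 with both drugs in Huh7. Hep3B libraries held 3 to 13 reads of it, and the difference was -4.18 ± 0.33 (SE, edgeR adjusted p = 1.53e-05). SLC1A2 was higher in Hep3B (2.61 ± 0.60, edgeR adjusted p = 0.00489) on 0 to 28 reads per library. SLC1A5 (0.80 ± 0.09, edgeR adjusted p = 9.38e-05) and SLC38A7 (0.74 ± 0.14, edgeR adjusted p = 0.00188) were also higher in Hep3B. SLC38A5, or SNAT5, was lower there (-3.09 ± 0.33, edgeR adjusted p = 7.84e-05), with 4 to 7 reads per Hep3B library, as was SLC7A4 (-2.13 ± 0.33, edgeR adjusted p = 0.000637). SLC43A1 (-1.09 ± 0.13, edgeR adjusted p = 0.000169) and SLC38A11 (-0.83 ± 0.19, edgeR adjusted p = 0.00462) were lower as well. The leucine exchanger SLC7A5 (-0.61 ± 0.11, edgeR adjusted p = 0.00135), the cystine and glutamate exchanger SLC7A11 (-0.74 ± 0.09, edgeR adjusted p = 0.000142) and their heavy chain SLC3A2 (-0.54 ± 0.13, edgeR adjusted p = 0.00715) were lower in Hep3B, while the light chain SLC7A8 was not called (-1.08 ± 0.57, edgeR adjusted p = 0.13). SLC38A9 (0.67 ± 0.11, edgeR adjusted p = 0.000891) and SLC1A3 (0.69 ± 0.12, edgeR adjusted p = 0.000957) were higher there, while SLC7A1 was not called (0.18 ± 0.08, edgeR adjusted p = 0.0956).

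**Figure D4:**
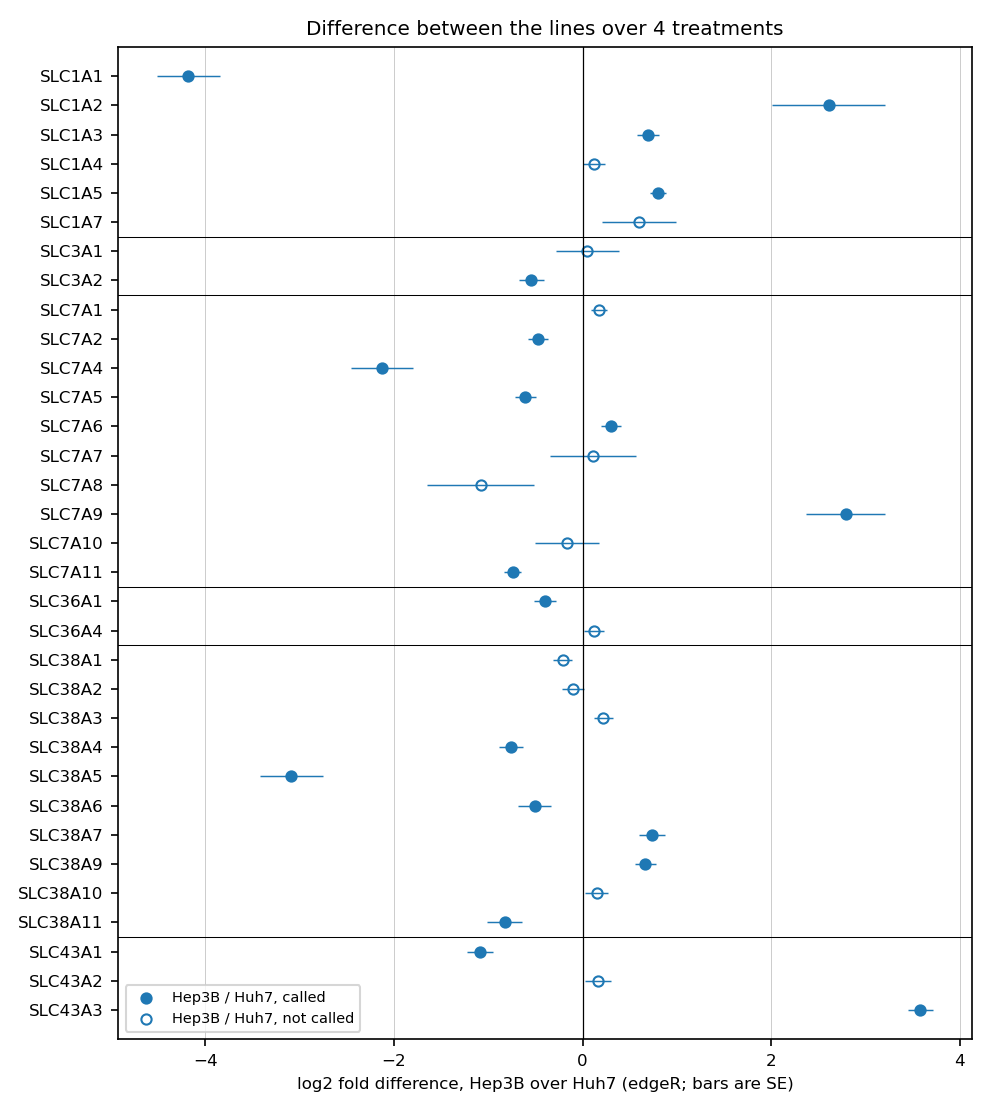
Log2 difference of each member between Hep3B and Huh7 over 4 treatments, with bars of 1 SE; filled points were called. SLC43A3, SLC7A9 and SLC1A2 lie far to the right (higher in Hep3B), SLC1A1, SLC38A5 and SLC7A4 far to the left, and most of the abundant members lie within 1 log2 unit of 0.

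Sertraline acted differently on SLC7A7 and SLC38A7 in the 2 lines. These were 2 of 33 members called in a test of the line difference, against 4.34% of all genes tested (2.57% higher and 1.77% lower). Before adjustment, 8 members and 17.8% of genes had a p under 0.05. Fewer members and fewer genes were called without any single Huh7 library. Without either Hep3B library given XL413 more of both were called. Without the Hep3B control or sertraline library there were more members but not more genes. In this test a positive value means a higher log2 change in Hep3B, and the spread is the departure from additivity of the drugs within each line. SLC7A7, or y+LAT1, exports arginine and lysine from gut and kidney cells and its loss causes lysinuric protein intolerance (chr14:22773222-22829820). In Huh7 it had 24.3 CPM in the control, 5.27 with sertraline, 39.9 with XL413 and 9.02 with both drugs. In Hep3B it was 18.8, 21.0, 15.0 and 12.3. The 2 Huh7 libraries with sertraline were the lowest of the 8. In Huh7 SLC7A7 was 4.3-fold lower with sertraline without XL413 and 4.25-fold lower after it, while in Hep3B the ratios were 1.11 and 0.822. The line difference was 2.12 ± 0.18 (SE, edgeR adjusted p = 2.97e-06) and was called in all 8 fits that left out a library.

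SLC38A7, or SNAT7, which exports glutamine and asparagine from the lysosome, had 24.0 CPM in the control, 47.1 with sertraline, 26.0 with XL413 and 53.6 with both drugs in Huh7 (chr16:58665109-58685104). Its Hep3B values were 50.8, 67.9, 53.6 and 66.7. It was higher with sertraline in both lines, 1.94-fold and 2.04-fold in Huh7 and 1.33-fold and 1.24-fold in Hep3B, without and with XL413. The line difference was -0.64 ± 0.14 (SE, edgeR adjusted p = 0.0116), and it was not called without any single Huh7 library (-0.67 to -0.61, adjusted p = 0.0939 to 0.162). The next smallest p-values were those of SLC38A10 (0.48 ± 0.15, edgeR adjusted p = 0.0716), SLC43A1 (-0.45 ± 0.15, edgeR adjusted p = 0.106) and SLC7A2 (-0.33 ± 0.14, edgeR adjusted p = 0.211). Of these, SLC38A10 was called without either XL413-treated Hep3B library (0.69 in both fits, adjusted p = 0.000678 and 0.000704), and SLC43A1 without the Hep3B control (-0.62, 0.0169) or the Hep3B sertraline library (-0.64, 0.00705).

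XL413 acted differently on 7 members, all with a lower log2 change in Hep3B, against 8.9% of all genes tested (3.94% higher and 4.96% lower). Unadjusted p-values were under 0.05 for 14 members and for 22.3% of genes. Both the members and the genes called were fewer without any single Huh7 library. Of the 7, 4 encode SLC3A2 and light chains that pair with it. SLC7A8, or LAT2, an exchanger of neutral amino acids best known from kidney and gut (chr14:23125295-23183674), had 2.45 CPM in the control, 0.878 with sertraline, 15.6 with XL413 and 10.0 with both drugs in Huh7. Hep3B had 2.52, 1.96, 3.16 and 1.77. The 2 Huh7 libraries with XL413 stood above the other 6, and SLC7A8 was 5.44-fold higher with XL413 alone in Huh7 against 1.21-fold in Hep3B. Its line difference was -2.88 ± 0.32 (SE, edgeR adjusted p = 8.93e-06). SLC7A7 was 1.63-fold higher with XL413 alone in Huh7 and at a ratio of 0.803 in Hep3B, a difference of -1.29 ± 0.18 (SE, edgeR adjusted p = 0.000128). SLC7A10, or Asc-1, which carries glycine, serine and D-serine, had 3.44 CPM in the control, 2.89 with sertraline, 5.51 with XL413 and 7.10 with both drugs in Huh7. Its Hep3B values were 4.33, 5.71, 3.25 and 3.15. The libraries with XL413 were the highest in Huh7 and the lowest in Hep3B, with a line difference of -1.65 ± 0.28 (SE, edgeR adjusted p = 0.000673). These 3 were called in every fit that left out a library.

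The other 4 calls were smaller, and each was lost in some of the fits that left out a library. SLC3A2 differed by -0.62 ± 0.17 (SE, edgeR adjusted p = 0.0279), and was not called without the Huh7 control, the Huh7 XL413 library, the Hep3B sertraline library or the Hep3B library with both drugs (-0.45 to -0.35, adjusted p = 0.226 to 0.277). SLC38A2 differed by -0.48 ± 0.14 (SE, edgeR adjusted p = 0.0428) and was not called in any fit that left out a library (-0.55 to -0.41, 0.0638 to 0.28). SLC38A6, an SLC38A member whose substrates are less well known, had 12.1 CPM in the control, 16.9 with sertraline, 12.6 with XL413 and 19.9 with both drugs in Huh7. In Hep3B it had 12.8, 12.4, 7.49 and 10.5. Its difference of -0.65 ± 0.20 (SE, edgeR adjusted p = 0.0404) was not called without any single Huh7 library, the Hep3B control or the Hep3B XL413 library (-0.74 to -0.40, 0.102 to 0.329), by DESeq2 (0.235) or by limma voom (0.0565). For SLC43A2, Huh7 had 26.4 CPM in the control, 16.0 with sertraline, 30.2 with XL413 and 24.7 with both drugs. Hep3B had 38.4, 20.8, 29.2 and 21.4. Its difference of -0.59 ± 0.18 (SE, edgeR adjusted p = 0.0463) was not called without the Huh7 sertraline library, the Huh7 library with both drugs, the Hep3B control or the Hep3B XL413 library (-0.38 to -0.35, 0.232 to 0.502), by DESeq2 (0.193) or by limma voom (0.0571).

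Genes around the carriers were read from 4 lists. Because the lists were chosen with earlier results of these data known, their counts are descriptive and give no independent support. Their counts stand beside 2.96% of all genes called higher and 1.94% lower with sertraline, with a median log2 change of 0.01, and beside 0.666% and 0.271% after XL413. In the list of the amino acid stress response, 8 of 20 tested genes were called higher with sertraline and 0 lower, with a median log2 change of 0.64, and 5 were higher after XL413. TRIB3, a pseudokinase that binds ATF4 and AKT, had 120.1 CPM in the control, 508 with sertraline, 83.0 with XL413 and 301 with both drugs in Huh7 and, in the same order, 134, 577, 98.8 and 354 in Hep3B. Its log2 change was 2.09 ± 0.11, edgeR adjusted p = 0.000792. ASNS, which makes asparagine from aspartate and glutamine (1.56 ± 0.12, edgeR adjusted p = 0.00279), DDIT3, or CHOP, a stress transcription factor (1.61 ± 0.13, edgeR adjusted p = 0.00279), and CHAC1, which degrades glutathione (1.90 ± 0.16, edgeR adjusted p = 0.00298), rose as well. Among 35 genes of mTORC1 amino acid sensing, with a median of 0.15, 3 were called higher and 0 lower. These were the Rag GTPases RRAGD (1.73 ± 0.28, edgeR adjusted p = 0.0159) and RRAGC (1.25 ± 0.27, edgeR adjusted p = 0.039) and their regulator FLCN (1.12 ± 0.19, edgeR adjusted p = 0.0194). After XL413, 1 was called. For the line difference of the sertraline effect, 6 of the 35 were called lower and 0 higher, against 1.77% and 2.57% of all genes. RRAGC (-0.93 ± 0.16, edgeR adjusted p = 0.00237) and FLCN (-0.63 ± 0.15, edgeR adjusted p = 0.019) were among them. Both rose in each line, and more so in Huh7. Of 13 genes that make, use, recycle, degrade or regulate glutathione and related thiols, with a median of 0.30, 2 were higher and 0 lower, CTH, which makes cysteine from cystathionine (1.94 ± 0.26, edgeR adjusted p = 0.00931), and GGT7, of the family that degrades glutathione outside the cell (0.98 ± 0.18, edgeR adjusted p = 0.0227), and 0 were called after XL413. Of 21 tested carriers from other families, with a median of 0.22, 4 were higher and 1 lower. The mitochondrial glutamate carrier SLC25A18 (1.47 ± 0.19, edgeR adjusted p = 0.00821), the glycine carrier SLC6A9 (1.58 ± 0.21, edgeR adjusted p = 0.00884) and the lysosomal cationic carrier PQLC2 (0.86 ± 0.14, edgeR adjusted p = 0.0159) were higher, and SLC6A14, a carrier of neutral and cationic amino acids, was lower (-1.93 ± 0.27, edgeR adjusted p = 0.00961). After XL413, 1 of these 21 was called higher, SLC25A18. For XL413 alone 0 genes of the 4 lists were called.

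Markers of other cell types were read beside these results. Hepatocyte markers, all 9 above 1 CPM in some library, summed to 35760 to 51460 CPM in Huh7 and 30060 to 45720 in Hep3B. Fibroblast markers summed to 137 CPM in the Huh7 control, 56.0 with sertraline, 246 with XL413 and 136 with both drugs, and to 25.1 to 47.4 in Hep3B. In each line this sum put the 4 libraries in the same order as SLC7A7 did, and its part in that result was not tested. A single gene held much of the sum in some libraries, COL1A2 with 182 CPM in the Huh7 XL413 library and LUM with 29.3 CPM in the Hep3B sertraline library. Another marker, PDGFRB, did not follow the sum, at 31.4 CPM in the Huh7 control against 17.2 with XL413 and at 21.6 in the Hep3B control against 10.9 with sertraline. Cholangiocyte markers summed to 356 to 592 CPM in Huh7 and 650.3 to 857 in Hep3B. Endothelial markers (3 of 4 in the table) and immune markers stayed at or under 6.62 and 4.57 CPM. No marker was at 0 in all 8 libraries, but the fibroblast marker DCN reached at most 0.105 CPM. In bulk RNA, fewer cells with a transcript and less of it per cell cannot be told apart.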

How the data were processed

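The authors deposited raw counts of reads per Ensembl gene for 8 poly(A)-selected, stranded libraries, which the submitters' processing notes tie to the tools HISAT2 and HTSeq and to build GRCh38 (hg38). Their versions, the annotation release and the counting's strand setting are not stated in the sources at hand. Of 31710 rows, 0 named no gene and 0 columns belonged to other samples. Positions and symbols come from the deposited table, exon lengths and overlaps from GENCODE release 29.

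Counts were analysed in R 4.3.3 with edgeR 4.0.16. The filterByExpr function on the treatment groups kept 16972 genes and removed 14738. TMM scaling and a quasi-likelihood fit of cell line plus treatment followed (3 residual degrees of freedom), with Benjamini-Hochberg adjustment over all genes and a threshold of 0.05. SEs are the log2 fold change divided by the root of F. Line differences of the drug effects came from a fit of line by XL413 plus line by sertraline (2 residual degrees of freedom). The cell line is a block because the 4 libraries of a line share their cells, and within a line the libraries' deviations from treatment means had correlations (r) of 0.888 to 0.942. Whether libraries came from separate cultures is not stated, so p-values measure only the spread between these libraries. Ratios inside a line compare 2 libraries with a pseudocount of 0.5 CPM and have no test. The fit was tested on simulated data, which for sertraline held no difference between the lines, unlike the real data. For sertraline it recovered 48 of 100 genes changed by 1 log2 unit and 84 of 100 changed by 2. Of its 143 calls, 11 were false.

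The members and gene lists were chosen with earlier results of these data known. Named are members called for a drug comparison, the 5 largest called line differences each way, the 5 smallest p for XL413 and each line difference, 10 carriers given throughout, and up to 4 genes of each list. Alternatives were DESeq2 1.42.0, limma 3.58.1 voom, DESeq2 size factors, other filters, an additive model, fits without the line or treatment term, each library left out, and other pseudocounts and read minimums.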

Additional observations from a re-analysis of the deposited data

Results flagged for a closer look

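For 9 results the effect of a drug differed between the lines by the edgeR test of the difference, which is why they are given again with the value of Hep3B minus Huh7 on the log2 scale. For sertraline these were SLC7A7, at 2.12, which was lower with the drug in Huh7 and near its control in Hep3B, and SLC38A7, at -0.64, which was higher in both lines and more so in Huh7. For XL413 these were SLC7A8 at -2.88, SLC7A10 at -1.65 and SLC7A7 at -1.29, each with Huh7 libraries that stood above the Huh7 control under XL413 alone. The other 4 were SLC38A6 at -0.65, SLC3A2 at -0.62, SLC43A2 at -0.59 and SLC38A2 at -0.48. Each line has 1 library per treatment, so cultures and lines cannot be told apart in these values.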

How the results depend on the processing

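Alternatives for single members were run for those called for sertraline, the 5 largest called differences each way between the lines, the 5 smallest p-values for XL413 and for the line difference of the sertraline effect, and the 7 called for that of the XL413 effect. None of these values changed direction. Other members were refitted as well and enter the counts below, but their single values are not given. Some members described above as not called for sertraline are among those that DESeq2 called. With the cell line left out (no replicate block), 0 members and 0 genes were called for sertraline against control. The same held for sertraline after XL413. For XL413 alone and for the interaction of the drugs, 0 members were called with or without the block. Comparisons between the lines were not run without it. For sertraline against control, DESeq2 and the fit without a low-count filter each called 13 members and the additive model 17, and leaving out a library gave 3 to 8. For sertraline after XL413, DESeq2 called 6 and the unfiltered fit 8, and leaving out a library gave 0 to 4. For XL413, DESeq2 and the unfiltered fit each called 1 and the additive model 5, and every fit without a library called 0. Between the lines, 10 members were called without the treatment term and 17 to 21 with a library left out. For the line difference of the sertraline effect, leaving out a library gave 1 to 6 members, and for that of the XL413 effect 4 to 9. Over all genes, sertraline against control gave 831 calls in the main fit, 1611 with DESeq2, 1585 unfiltered and 3399 with the additive model. Sertraline after XL413 gave 159 in the main fit, 810 with DESeq2 and 830 unfiltered. XL413 alone gave 0 in the main fit, 203 with DESeq2, 238 unfiltered and 1094 with the additive model. Between the lines, 10646 genes were called in the main fit and 9361 to 9859 with a library left out. The line differences gave 737 genes for sertraline and 1510 for XL413 in the main fit. In both sertraline comparisons and both line differences, calls over all genes also varied widely when a library was left out. Whether the members varied more than other genes was not tested. Lowering the read minimum to 5 gave 35 members and raising it to 50 gave 30. Of the values compared one by one, 451 kept their side of the threshold, 69 lost a call and 10 gained one. The cause of these changes was not tested. Depth limits SLC1A2, SLC38A5 and SLC1A1, which had under 10 reads in 3 or more libraries.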
